A study of Mus musculus with 8 samples.

Results

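Ribosomal protein genes encode the proteins of the cytosolic ribosome. The set held every gene symbol of the form Rpl or Rps followed by a number and at most a short suffix, together with Rplp0, Rplp1, Rplp2 and Rpsa. Pseudogenes and the Rps6k kinases were not taken. This gave 83 of the 23389 symbols listed for each library. The common set counted 77 genes, of which 46 encode proteins of the large subunit and 31 proteins of the small subunit. The other 6 genes, Rpl3l, Rpl7l1, Rpl10l, Rpl22l1, Rpl39l and Rps27l, are close relatives of common members (paralogues) and were treated apart. No measured value was used to choose the members.

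The 8 mouse RNA-seq libraries form 4 groups of 2. A first kind of induced pluripotent stem (iPS) clone was made from embryonic fibroblasts with the transcription factors Oct4, Klf4 and Sox2 (3F) and was treated with the cytokine IL6 at 10 ng/mL. A second kind is labelled 4F, with no list of its factors in the labels and no IL6 treatment stated. The reference cells are the embryonic stem (ES) cell line D3 carrying GFP and mouse embryonic fibroblasts (MEF). Each iPS library is 1 clone, and the 2 clones of a kind were derived independently. In the ES and MEF groups the pair is described as biological replicates, with no word on separate animals, so p-values measure only the spread between libraries, which may be technical. D3 cells have the 129S2/SvPas strain and the clones and fibroblasts have BALB/c, so no comparison with ES cells can separate strain from cell type: they cannot be told apart. The number of factors and the IL6 treatment also change together between the kinds of clone. Values are RPKM, reads scaled to gene length and library depth, so that levels of different genes compare per length. Differences are on the log2(RPKM + 1) scale, and a gene was called higher or lower where limma gave a Benjamini-Hochberg adjusted p under 0.05 over all 13200 genes tested.

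A ribosome is built in the nucleolus from ribosomal RNA made by RNA polymerase I and from ribosomal proteins that are made in the cytoplasm and imported. The proteins of each subunit are needed in equal amounts, and growing cells spend much of their transcription and translation on them. In vertebrates their mRNAs typically begin with a C followed by a run of pyrimidines, the terminal oligopyrimidine tract. Through this tract, mTOR signalling and the RNA-binding protein LARP1 control how strongly the mRNAs are translated.

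RefSeq start sites (GRCm38.p6) are shown for members that carry this tract at the annotated start and for paralogues that do not, because the tract is the shared sequence feature of the family. RefSeq promoters matched 62 of the 83 members, with 74 start sites in all. A C followed by at least 4 pyrimidines stood exactly at the annotated start in 13 of 66 start sites of the common set (19.7%), against 2.51% of all 32851 RefSeq promoters and 0 of 8 start sites of paralogues. Each line gives the gene, its position and 30 bases 5′ to 3′ on the strand of the gene, of which 10 lie before the start. Capitals mark the tract.
Rps6, chr4:86857348-86857377, minus strand: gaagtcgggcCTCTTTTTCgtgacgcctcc
Rps18, chr17:33955646-33955675, minus strand: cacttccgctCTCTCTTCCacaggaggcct
Rps10, chr17:27635225-27635254, minus strand: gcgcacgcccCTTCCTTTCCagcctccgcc
Rpl15, chr14:18270967-18270996, minus strand: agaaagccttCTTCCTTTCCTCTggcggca
Rpl28, chr7:4792955-4792984, plus strand: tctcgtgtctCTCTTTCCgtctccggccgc
Rpl35, chr2:39005112-39005141, minus strand: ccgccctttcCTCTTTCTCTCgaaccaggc
Rps27, chr3:90213629-90213658, minus strand: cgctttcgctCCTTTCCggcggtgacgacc
Rps27l, chr9:66946076-66946105, plus strand: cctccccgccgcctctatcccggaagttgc
Rpl22l1, chr3:28805498-28805527, plus strand: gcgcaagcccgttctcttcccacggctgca
Rpl10l, chr12:66284382-66284411, minus strand: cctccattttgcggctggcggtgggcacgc

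The tract was more frequent in a wider window, from 15 bases before to 20 bases after the annotated start. There it was found in 65.2% of the 66 common start sites, in 62.5% of the 8 paralogue start sites and in 40.9% of all promoters. The Rps27l, Rpl22l1 and Rpl10l sites shown above hold it in this window. So the common set and the paralogues differed at the exact start but hardly in the wider window. The share of all promoters rose too, from 2.51% at the start itself. The wider window therefore cannot show whether annotated starts miss the tract by a few bases. Searched on both strands from 250 bases before to 50 bases after the start, CCGGAAG, a match to ETS family factors, occurred in 36.4% of common start sites and 8.86% of all promoters. AAGATGGC, a match to YY1, occurred in 10.6% and 2.75%, and CACGTG, the E-box bound by MYC and MAX, in 12.1% and 7.15%. TATAAA, a core promoter element, occurred in 9.09% and 13.6%. CCGGAAG and AAGATGGC can overlap by the letters AAG. The 66 common start sites belong to 56 genes, and windows of the same gene can overlap. Rpl35a counts more than once for AAGATGGC, as do Rpl19 and Rpl34 for CACGTG. These matches describe letters in a window and were not related to the measured levels.

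Ribosomal protein transcripts made up a large part of every library and, with the values as deposited, were highest in the iPS clones. The 77 common genes held 21.9% and 21.5% of the summed RPKM of the ES libraries. They held 24.5% and 23.0% in the 3F + IL6 clones, 25.6% and 24.9% in the 4F clones, and 16.3% and 16.4% in MEF. The 4 groups did not overlap in this share. The median common gene stood at 1522 and 1489 RPKM in ES, 1822 and 1648 in 3F + IL6, 1994 and 1842 in 4F, and 992 and 988 in MEF. Of the 100 symbols with the highest RPKM in a library, 67 to 69 were common ribosomal protein genes in the 6 pluripotent libraries and 53 in each MEF library.

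Levels within the set spanned a wide range. The highest means over the 8 libraries were those of Rplp1, an acidic protein of the large subunit stalk, at 3561 RPKM, Rps2 at 3134 RPKM and Rpl41, a very small large-subunit protein, at 3063 RPKM. The lowest were those of Rpl34 at 102 RPKM, Rps15a at 122 RPKM and Rpl22 at 242 RPKM. Many reads of these genes could also match pseudogenes or other gene copies. A median of 43.4% of the 50-base windows of a common member's transcript was absent from every other GENCODE transcript, and 47 of the 77 genes lay under 50%. Over the common genes this share and the mean RPKM had a Spearman rho of −0.08, as a description. Among the lowest genes, Rps15a (93.9%) and Rpl22 (75.5%) were mostly unique over the transcript taken for each, of 5130 and 474 bases. How shared reads were placed is not given in the sources used here.

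**Figure D1:**
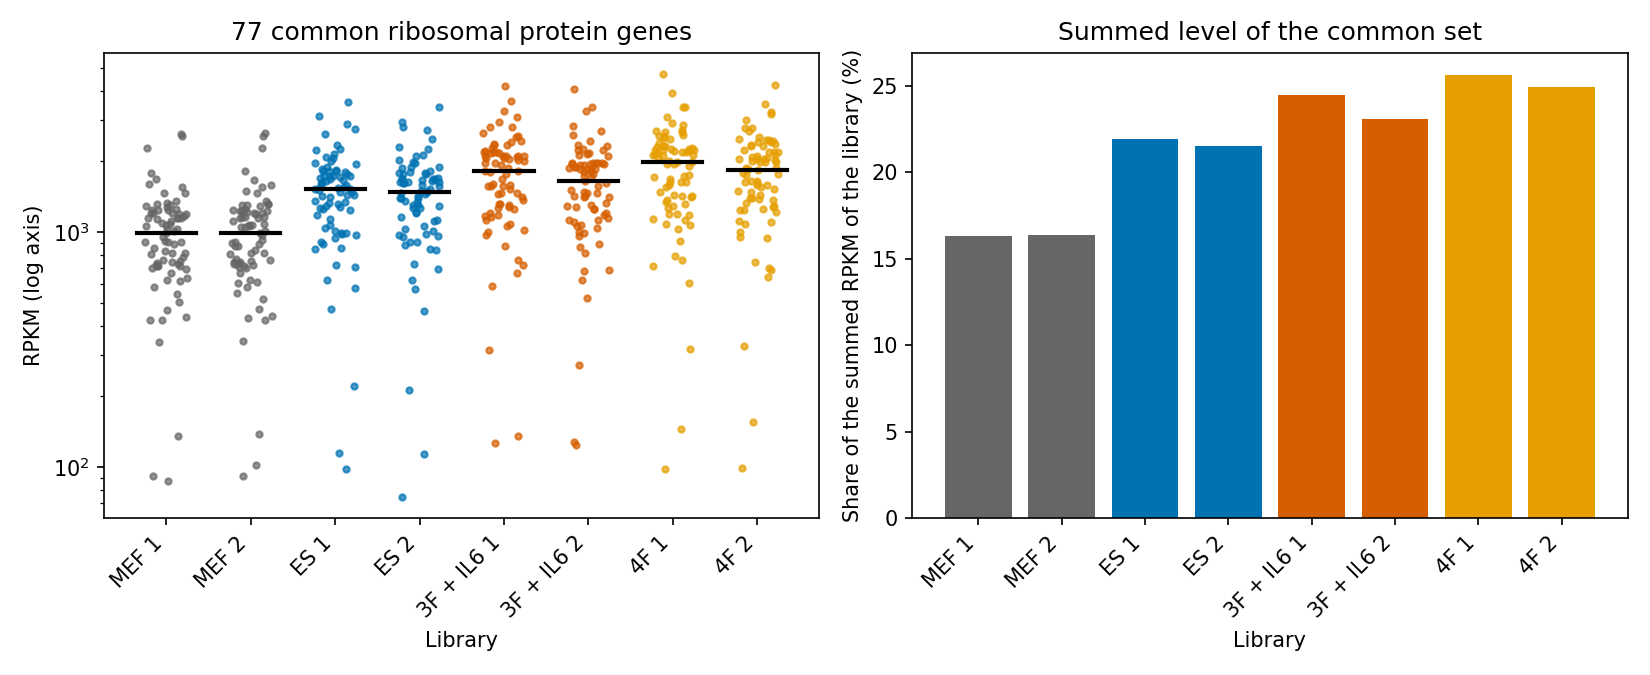
Left, RPKM of the 77 common ribosomal protein genes in each library on a log axis, with a bar at the median. Right, their share of the summed RPKM of the library in percent. The medians lie between 988 and 992 in the MEF libraries and between 1489 and 1994 in the 6 pluripotent libraries, and the shares run from 16.3% in MEF to 25.6% in 4F.

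The libraries showed the markers of their labelled cell types. The summed RPKM of 8 pluripotency markers ranged from 4973 to 6109.8 in the 6 pluripotent libraries and from 6.81 to 8.51 in MEF. That of 10 fibroblast markers was 2742 to 2754 in MEF, 5.26 to 5.32 in ES, 142 to 168 in 4F and 182 to 282 in 3F + IL6. The step between low values gave an estimated depth of 11700000 to 18100000 reads. Replicate spread differed between groups: for genes with an estimated 100 to 1000 reads, the median squared difference between the 2 libraries was 1.09 times counting noise in MEF, 1.24 times in ES, 2.95 times in 4F and 12.1 times in 3F + IL6. Averaged as a chi-square per gene, the MEF pair still differed by 1.82 times counting noise and the ES pair by 5.06 times, so no pair was counted as 1 sample. The fit uses 1 shared spread for groups whose spreads are unequal. In RNA from whole cultures, fewer cells of a type and less RNA per cell cannot be told apart.

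The comparison of pluripotent cells with MEF asks how the ribosomal protein programme differs between the stem cell state and the starting cell type. Nearly every common gene was higher in pluripotent cells. limma called 77 of 77 higher in 3F + IL6 (percent called higher over all genes, 49.4), 76 in 4F (49.2) and 73 in ES (49.7), and 0 lower in each (32.6, 34.4 and 32 percent of all genes). In either direction, 82.1, 83.6 and 81.7 percent of all genes were called. The median difference was 0.75, 0.89 and 0.57, a fold of 1.68, 1.85 and 1.48, where all genes tested had medians of 0.26, 0.25 and 0.27. These 3 comparisons share the MEF libraries. All 6 pluripotent libraries lay above both MEF libraries for 76 of the 77 genes, and 73 were called in all 3 comparisons. Both counts were made for the common set only, so they do not set it apart from other genes. Taken 1 group at a time, both libraries lay above MEF for 7128 (3F + IL6), 7195 (4F) and 7478 (ES) of all 13200 genes.

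Rpl36 and Rpl8, both of the large subunit, illustrate the size of the step. Rpl36 was at 696 and 722 RPKM in MEF, 1480.0 and 1401 in ES, 1573 and 1509 in 3F + IL6 and 1753 and 1594 in 4F. Every pluripotent library lay far above MEF, and the differences from MEF were 1.02, 1.12 and 1.24 (SE 0.06). Rpl8 was at 1146 and 1149 RPKM in MEF, 2067 and 1989 in ES, 2546 and 2355 in 3F + IL6 and 2851 and 2551 in 4F. Here the iPS clones stood above ES as well. Rpl17, a large-subunit protein near the exit of the nascent chain, had the largest ES difference of the set, 1.34 (SE 0.06, limma adjusted p = 6.67e-07), at 906 and 902 RPKM in MEF and 2258 and 2308 in ES. Rps14, of the small subunit, was at 886 and 876 RPKM in MEF, 1726 and 1687 in ES, 2063 and 1816 in 3F + IL6 and 2197 and 1858 in 4F, with no overlap between any pluripotent library and MEF.

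The exceptions were few. Rpl34, the lowest of the set, was at 87.5 and 102 RPKM in MEF, 98.1 and 74.5 in ES, 127 and 128 in 3F + IL6 and 97.7 and 99.2 in 4F. Only the 3F + IL6 clones were called against MEF, at 0.43 (SE 0.13, limma adjusted p = 0.0168), and the ES and 4F libraries overlapped with MEF or lay between its values. Rpl10, Rpl39 and Rps2 were called in both kinds of iPS clone but not in ES, where their differences from MEF were 0.18, 0.10 and 0.10.

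The size of the step depended on the scaling of the libraries. Under quantile normalization, which gives every library the same distribution of values, the medians against MEF were 0.36, 0.37 and 0.34 for 3F + IL6, 4F and ES, and 66, 67 and 58 genes were called higher with 1, 0 and 4 lower. Common members hold 53 to 69 of the 100 highest symbols in a library, so quantile normalization takes out part of any shift they share. The median over all genes also moved, to 0.06, 0.09 and 0.15. Relative to that median the common set stood 0.48, 0.64 and 0.30 higher with the values as deposited and 0.29, 0.28 and 0.19 higher after quantile normalization.

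Between iPS clones and ES cells, most common genes were higher in the clones with the values as deposited, though not after quantile normalization, which is given further on. In 4F against ES, limma called 67 of 77 higher (33.7 percent of all genes) and 1 lower (33.5), with a median of 0.30, a fold of 1.23. In 3F + IL6 against ES it called 46 higher (33.1) and 1 lower (30.3), with a median of 0.20, a fold of 1.15. All genes tested had medians of 0.00 and 0.01, and 67.2 and 63.4 percent of them were called in either direction. The comparisons share the ES libraries, and 45 genes were called higher in both. Of the 46 large-subunit genes, 41 were higher in 4F and 31 in 3F + IL6, and of the 31 small-subunit genes, 26 and 15. By group mean, 65 of the 77 genes followed the order 4F, 3F + IL6, ES, MEF from high to low. This order and the 45 shared calls were counted for the common set only, so they do not set it apart from other genes. Both 4F clones lay above both ES libraries for 70 of the 77, and for 5791 of all 13200 genes tested.

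The largest rise in 4F outside the X chromosome was that of Rpl3, a core protein beside the peptidyl transferase centre. Rpl3 was at 1522 and 1489 RPKM in ES, 2362 and 1941 in 3F + IL6 and 2577 and 2483 in 4F. Every clone exceeded both ES libraries, and the differences were 0.51 (SE 0.08, limma adjusted p = 0.00181) and 0.75 (adjusted p = 0.00028). Both stayed called in all 18 alternative settings. In 3F + IL6 the largest was that of Rpl34, 0.57 (SE 0.13, limma adjusted p = 0.00673). Rpl28 rose by 0.50 and 0.61, from 1406 and 1402 RPKM in ES to 2072 and 1897 in 3F + IL6 and 2239 and 2041 in 4F. Rplp1 rose by 0.45 and 0.56, and Rpl22, which also binds RNA outside the ribosome, by 0.43 and 0.57.

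Rpl17 moved the other way in both kinds of clone, under every setting tried. It fell from 2258 and 2308 RPKM in ES to 1583 and 1410.4 in 3F + IL6 and 1635 and 1649 in 4F, by 0.61 (SE 0.06, limma adjusted p = 0.000127) and by 0.48 (adjusted p = 0.000354). No clone reached the ES level, and all 4 stayed above MEF. Of its 50-base windows, 21.3% were unique, and 50 annotated pseudogenes share sequence with it. The part of shared reads in its values was not tested. Rps27a and Rpl41 had differences of −0.13 and −0.09 in 3F + IL6 and 0.02 and −0.13 in 4F, and were not called. Rps13, Rpl15 and Rps12 lay between −0.03 and 0.14 in both and were not called either.

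**Figure D2:**
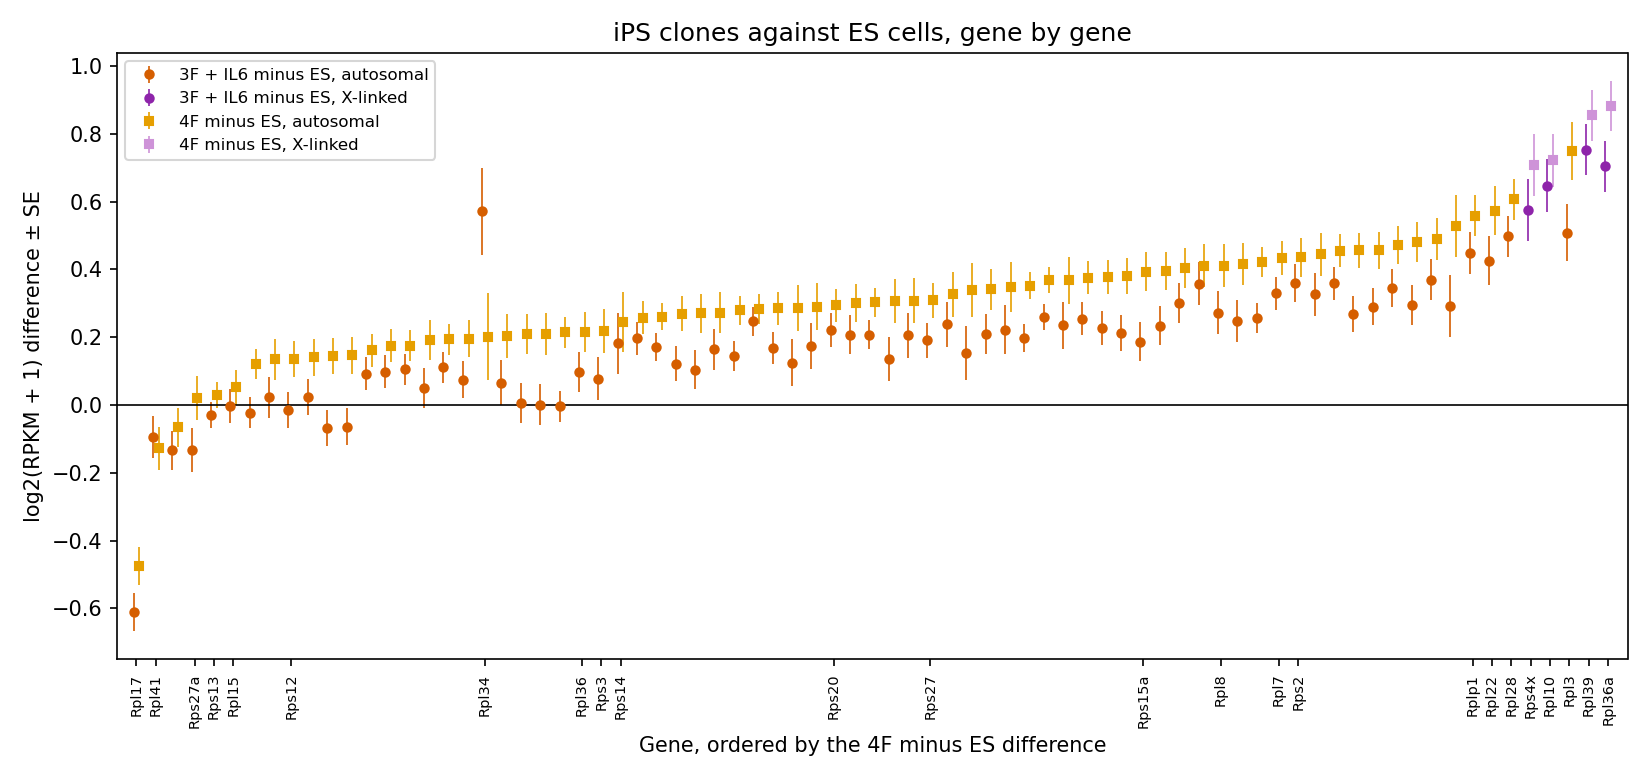
Difference from ES cells on the log2(RPKM + 1) scale with its standard error for each of the 77 common genes, ordered by the 4F value and named where the text gives its values; circles are 3F + IL6 and squares 4F, with X-linked genes in purple, all with the values as deposited. Rpl17 lies lowest at −0.61 and −0.48, and the 4 X-linked genes and Rpl3 lie highest in 4F, at 0.71 to 0.88.

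This excess over ES depended on the scaling. Common members hold 67 to 69 of the 100 highest symbols in these libraries. Quantile normalization equalizes those highest values, so it takes out part of any shift the set shares. Its medians alone cannot decide whether the set is higher. After quantile normalization the medians were −0.000223 in 3F + IL6 and 0.02 in 4F, with 18 genes called higher and 20 lower in the former and 21 higher and 14 lower in the latter. Relative to the median of all genes they were 0.06 and 0.06, against 0.18 and 0.30 with the values as deposited. Scaling libraries to the same sum gave medians of 0.13 and 0.20, with 40 higher and 7 lower and 52 higher and 3 lower. Without ES library 2, 26 genes were called higher in 3F + IL6, and without 3F + IL6 clone 1 there were 40 higher and 5 lower.

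Markers of another cell type moved with the same contrast. All 10 fibroblast markers were called higher in both kinds of clone than in ES (33.1 and 33.7 percent of all genes). Their medians were 3.12 and 2.35. Against MEF, 8 of them were called lower and 2 higher in 3F + IL6. In 4F against MEF, 8 were lower and 2 were not called. Of the 10 markers, 2 were listed at 0 in ES library 2, and Col1a1 was at 1.59 and 1.66 RPKM in ES against 47.0 to 71.6 in the clones. The common set was lowest in MEF, where the fibroblast marker sum was highest. The part of fibroblast RNA in the difference from ES was not tested.

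Between the kinds of clone few genes were called at all, and none of the common set. Of 77 genes, limma called 0 higher (0.773 percent of all genes) and 0 lower (0.568) in 3F + IL6 against 4F, which is near the shares over all genes. Both 3F + IL6 clones lay below both 4F clones for 51 of the 77 genes, and for 2639 of all 13200. They lay above both for 1 of the 77, and for 3530 of all genes. Of the 77, 30 had an unadjusted limma p under 0.05, as had 3198 of all 13200 genes tested. The differences nevertheless leaned to one side, with 75 of 77 negative against 5760 of all 13200. Their median was −0.12, a fold of 0.92, and the smallest limma adjusted p of the 77 was 0.0654. The median was −0.03 after quantile normalization, −0.19 without 3F + IL6 clone 1 and −0.06 without clone 2, and has the size of the gap inside the 3F + IL6 pair. Clone 1 exceeded clone 2 in 75 of 77 genes, with a median of −0.12 for clone 2 minus clone 1, and in the other groups the first library was higher for 66 (ES), 54 (4F) and 34 (MEF) genes. Of all alternative settings, only the fit without 3F + IL6 clone 1 called common genes lower. In that fit far more of all genes were called as well, so its calls are not particular to the set. The median over all genes tested was 0.06 without clone 1 and 0.00 without clone 2. Rpl34 was the main gene with a positive difference, 0.37 (SE 0.13, limma adjusted p = 0.15), at 127 and 128 RPKM against 97.7 and 99.2.

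RNAs without a poly-A tail moved with this contrast. Rn45s, Rpph1 and Rmrp, the ribosomal RNA precursor and the RNA parts of the RNase P and MRP enzymes, summed to 64.9 and 60.8 RPKM in 3F + IL6 and 610.4 and 596 in 4F. They were also unequal inside the ES pair, at 89.8 and 704, and inside the MEF pair, at 46.5 and 267. Inside those pairs the common set had median differences of −0.03 (ES) and 0.00 (MEF). The fibroblast markers leaned to 3F + IL6, with a median difference from 4F of 0.53 and none of 10 called, and their part in the comparison was not tested.

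The mix of members within the set varied less than their levels. The coefficient of variation of RPKM over the 8 libraries had a median of 23.6% over the common genes, and that of each gene's share of the common sum a median of 6.27%. For 61 of 77 genes the share varied by under 10%. Rps20 was the steadiest, taking 1.99% to 2.07% of the common sum in every library, followed by Rpl37 with a variation of 1.59%. The least steady were Rpl17 (28.7%), Rpl34 (26.1%), Rpl36a (18.5%), Rpl39 (15.5%) and Rpl3 (15.3%). Rpl17 took 1.95% and 2.04% of the common sum in ES and 1.12% to 1.18% in the other 6 libraries. Rps2 took more of the set in MEF, at 3.31% and 3.32%, against 2.38% to 2.73% in pluripotent cells. Rpl41 took 3.08% and 3.03% in ES, 2.96% and 2.93% in MEF and 2.15% to 2.60% in the clones.

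Of the least steady genes, 2 lie on the X chromosome. The 4 X-linked members of the common set are Rpl10 (GRCm38 X, 74270812 to 74273135), Rpl36a (134585654 to 134588062), Rpl39 (37082520 to 37085402) and Rps4x (102184941 to 102189394). This split was made after the values were seen. Rpl10, which joins the large subunit late in its assembly, was at 1508 and 1494 RPKM in ES, 2569 and 2150.0 in 3F + IL6, 2524 and 2429 in 4F and 1331 and 1320 in MEF. Rpl39, a small protein of the exit tunnel, was at 1237 and 1157 in ES, 2175 and 1868 in 3F + IL6, 2220.1 and 2109 in 4F and 1116 and 1116 in MEF. For both genes every clone stood well above ES, and ES stood close to MEF.

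Rps4x, whose human counterpart has a Y-linked copy, was at 1696 and 1669 RPKM in ES, 2795 and 2251 in 3F + IL6, 2722 and 2775 in 4F and 1242 and 1205 in MEF. Rpl36a was at 847 and 839, 1472 and 1281, 1481 and 1629.7, and 627 and 608. Rises over ES in 3F + IL6 were 0.65, 0.70, 0.75 and 0.58 for Rpl10, Rpl36a, Rpl39 and Rps4x, and in 4F 0.72, 0.88, 0.85 and 0.71. limma called all 8 of these differences, with adjusted p between 8.45e-05 and 0.00145, and they stayed called in all 18 alternative settings. The 73 autosomal members had medians of 0.19 and 0.29. As a share of the common sum the X-linked genes took 4.57% and 4.57% in ES, 6.59% and 6.02% in 3F + IL6, 6.12% and 6.42% in 4F and 5.59% and 5.48% in MEF.

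The same lean was measured over the chromosome. Of 496 X-linked genes tested, 271 were called higher and 60 lower in 3F + IL6 against ES (54.6% and 12.1%). In 4F against ES, 263 were higher and 68 lower (53.0% and 13.7%). Genes of other chromosomes had 32.3% higher and 31.1% lower in 3F + IL6 and 32.9% and 34.3% in 4F. The medians were 0.36 and 0.33 for X-linked genes and 0.00 and −0.01 for the others. Genes that read the sex chromosomes, chosen after their values were seen, also divided the libraries. The Y-linked gene Ddx3y was at 11.3 and 11.8 RPKM in ES and 21.4 and 21.7 in MEF, and at 0.185 to 0.401 in the 4 clones. Eif2s3y, also Y-linked, was at 36.8 to 36.9 RPKM in ES, 29.7 to 31.3 in MEF and 0.337 to 0.674 in the clones. Xist, the RNA that coats an inactive X, was at 0.743 to 1.24 RPKM in the clones and at 0.0575 or less in ES and MEF. The part of X chromosome number or state in the X-linked members was not tested. In these libraries it cannot be told apart from the difference between clones and ES cells, nor from that between clones and MEF.

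The paralogues are described by their levels one at a time. Rpl3l and Rpl10l were at or above 1 RPKM in pluripotent libraries only, so they passed the low-value filter through the groups where they are high and enter no count. Rpl7l1, Rpl22l1, Rpl39l and Rps27l were each called higher in all 3 pluripotent groups than in MEF, where 49.2 to 49.7 percent of all genes were.

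Rpl22l1, the relative of Rpl22, was the only member of the whole set called between the kinds of clone. Of all 13200 genes tested, 1.34 percent were called in either direction, so this call does not set the family apart from other genes. Rpl22l1 was at 411 and 404 RPKM in 3F + IL6 and 550.4 and 528 in 4F, with 421 and 407 in ES and 180.4 and 186 in MEF. The 4F clones stood above every other library, and 3F + IL6 lay with ES. The difference of 3F + IL6 from 4F was −0.40 (SE 0.04, limma adjusted p = 0.0214). That call was lost in 8 of 18 alternative settings, among them the fit of only the 4 libraries compared and each fit that left out an ES, a 4F or a MEF library. Rpl22l1 exceeded Rpl22 in every library, with 56.6% to 65.8% of the pair. Its share was 65.4% and 65.8% in ES, 56.6% and 59.9% in 3F + IL6, 63.3% and 61.7% in 4F and 57.2% and 57.4% in MEF.

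Rpl10l (GRCm38 12, 66283379 to 66284401), a retrocopy of Rpl10 known from testis, had the largest step from MEF of any member. It was at 0.168 and 0.219 RPKM in MEF, 75.9 and 70.4 in ES, 135 and 151 in 3F + IL6 and 151 and 153 in 4F. MEF was near 0 and every clone was above both ES libraries. The differences from MEF were 5.96 in ES, 6.91 in 3F + IL6 and 7.003 in 4F, given as sizes only because of the low-value filter. The differences from ES were 0.95 and 1.05 (SE 0.07), and their calls held in all 18 alternative settings. Of its 50-base windows, 92.4% were unique. Against Rpl10, which was at 1331 and 1320 RPKM in MEF, Rpl10l made up 4.5% to 6.56% of the pair in pluripotent cells and 0.0126% and 0.0166% in MEF.

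Rpl7l1, a relative of Rpl7 that takes part in ribosome assembly, fell in both kinds of clone. It was at 131 and 129 RPKM in ES, 84.2 and 105 in 3F + IL6, 86.2 and 93.0 in 4F and 61.1 and 62.6 in MEF. The differences from ES were −0.46 (SE 0.10, limma adjusted p = 0.00527) and −0.53 (adjusted p = 0.00259), while Rpl7 rose. Rpl39l, a germ-cell relative of Rpl39, was at 48.1 and 44.2 RPKM in ES, 32.5 and 58.6 in 3F + IL6, 29.97 and 35.7 in 4F and 21.3 and 20.9 in MEF. The 3F + IL6 clones fell on either side of ES, and Rpl39l was not called against ES in either kind. Its call in 4F against MEF, 0.61 with a limma adjusted p of 0.0476, was lost in 12 of 18 settings.

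Rps27l, a p53-responsive relative of Rps27, was at 408 and 396 RPKM in MEF, 489 and 492 in ES, 554 and 530.4 in 3F + IL6 and 626 and 593 in 4F. Its share of the pair was 39.7% and 38.8% in MEF and 32.2% to 34.4% in pluripotent cells. The difference of 3F + IL6 from ES, 0.14, lost its call in 11 of 18 settings. Rpl3l, the striated-muscle form of Rpl3, was at 1.54 and 1.37 RPKM in ES, 0.603 and 0.361 in 3F + IL6, 0.996 and 0.527 in 4F and 0.0413 and 0 in MEF. It was the lowest member in every library. Only the ES libraries carried it past the low-value filter, so no difference of Rpl3l is given here. Its differences from MEF with libraries centred on the common set appear further on, as sizes only.

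**Figure D3:**
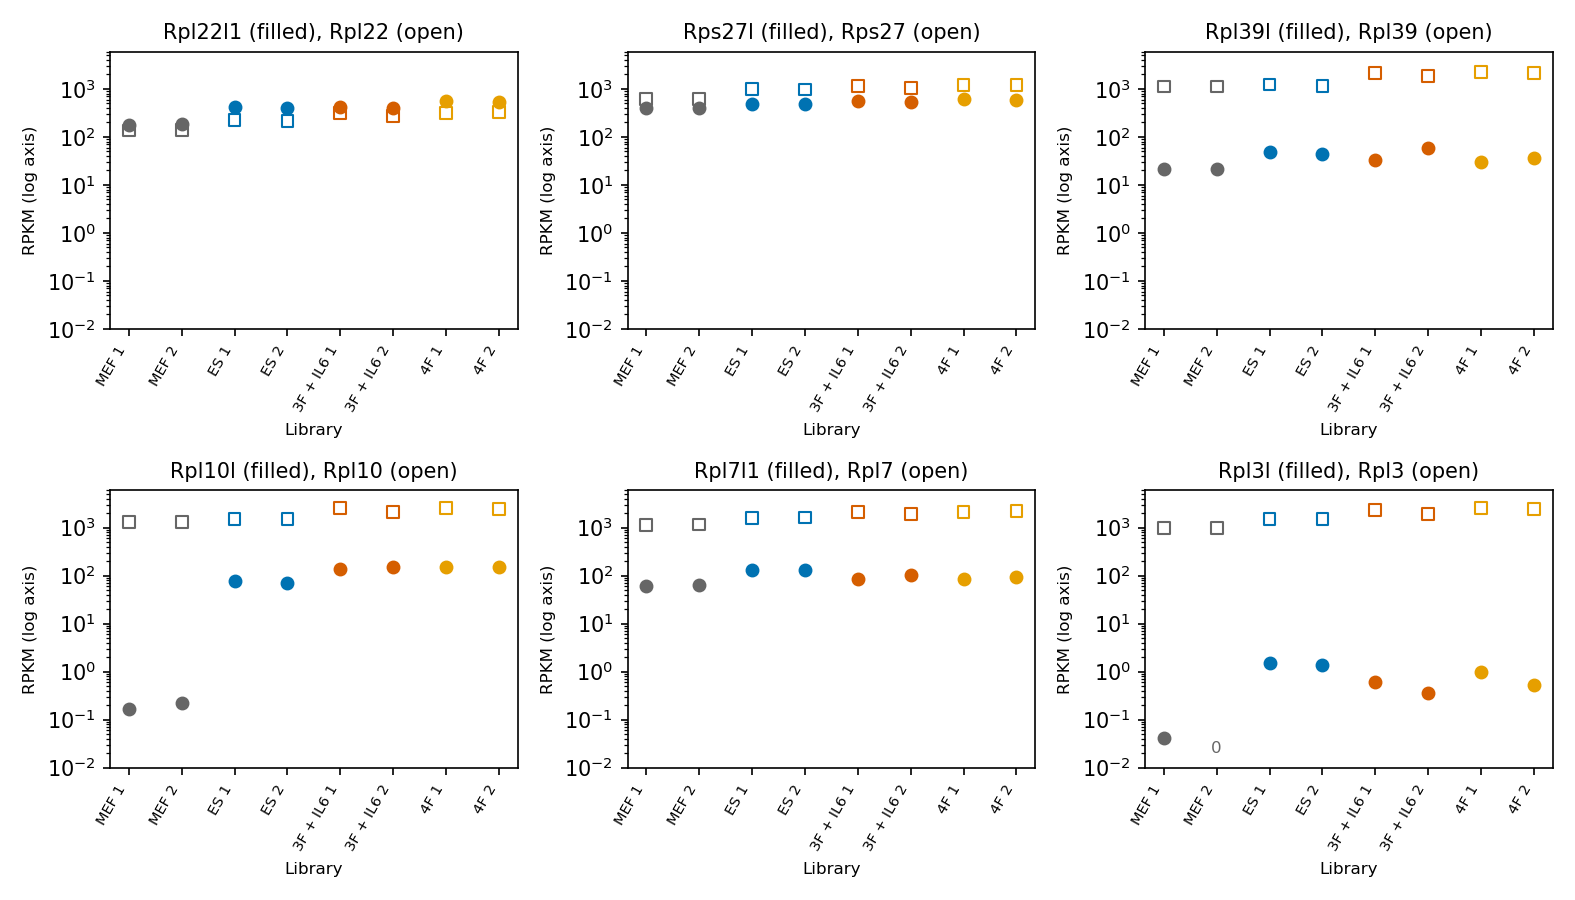
RPKM of each paralogue (filled circles) and its common partner (open squares) in the 8 libraries on a log axis; a value listed at 0 is marked 0. Rpl22l1 lies above Rpl22 in all 8 libraries, and Rpl10l drops from 70.4 RPKM or more in pluripotent cells to 0.219 RPKM or less in MEF while Rpl10 stays at 1319.5 RPKM or more.

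Genes of ribosome production outside the set were mostly higher in pluripotent cells than in MEF but had negative medians against ES. Of 42 ribosome biogenesis factors, 41 were called higher in ES than in MEF (49.7 percent of all genes), 36 in 4F (49.2) and 34 in 3F + IL6 (49.4). Against ES, however, 8 rose and 20 fell in 3F + IL6 (33.1 and 30.3 percent of all genes). In 4F, 8 rose and 18 fell (33.7 and 33.5). The medians of −0.17 and −0.17 were negative under all 5 scalings, the deposited one included. The nucleolar chaperone gene Npm1 was at 2419 and 2421 RPKM in ES, 2212 and 2265 in 3F + IL6, 2159.6 and 2441 in 4F and 990.4 and 983 in MEF. Fbl, the methyltransferase of box C/D particles, rose in the clones by 0.40 and 0.58, and Bysl, a factor of small-subunit assembly, fell by 0.63 and 0.97.

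Among RNA polymerase I genes, members were called lower against ES and none higher. Of 13 genes, 8 were called lower in 3F + IL6 (30.3 percent of all genes) and 9 in 4F (33.5). The medians of −0.43 and −0.37 were likewise negative under all 5 scalings. All 13 were called higher in ES than in MEF (49.7 percent of all genes). Ubtf, which loads the polymerase on ribosomal DNA, was at 80.0 and 78.4 RPKM in ES, 44.6 and 51.6 in 3F + IL6, 42.2 and 44.4 in 4F and 29.0 and 28.8 in MEF. Its differences from ES were −0.71 and −0.86 (limma adjusted p = 0.000212 and 9.13e-05). Polr1c, a subunit shared with RNA polymerase III, stood at 102 and 102 RPKM in ES and 98.4 to 103 in the clones, and at 38.0 and 37.5 in MEF. Of 76 mitochondrial ribosomal protein genes, 16 were called higher and 27 lower in 3F + IL6 against ES. These are 21.1% and 35.5%, where all genes had 33.1% and 30.3%. In 4F against ES, 20 were higher and 30 lower (26.3% and 39.5%, where all genes had 33.7% and 33.5%).

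The other translation lists were mixed against ES. Many mRNAs of translation factors carry the same pyrimidine tract. Of 18 translation factors, 16 were called higher in 3F + IL6 and in 4F than in MEF and 15 in ES. The share over all genes was 49.2 to 49.7 percent. Against ES, 4 rose and 3 fell in 3F + IL6 (33.1 and 30.3 percent of all genes). In 4F, 7 rose and 3 fell (33.7 and 33.5). The medians of 0.02 and 0.11 turned to −0.03 and −0.01 after quantile normalization. Eif4b, a helicase cofactor, rose by 0.72 and 0.91, and Eif4a1, the helicase itself, fell by 0.41 and 0.45. Fau and Gnb2l1, ribosomal proteins listed under other symbols, rose over ES with the values as deposited, by 0.34 and 0.29 in 3F + IL6 and by 0.40 and 0.39 in 4F. Of 7 host genes of small nucleolar RNAs, 2 were called lower in 3F + IL6 than in 4F (0.568 percent of all genes). These were Gas5 at −0.71 and Snhg12 at −0.80. Under 9 of the alternatives, among them the fit of only the 4 libraries compared, 0 of the 7 were called.

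Of 15 regulators of ribosomal protein synthesis, 5 were higher and 5 lower in 3F + IL6 against ES and 5 higher and 6 lower in 4F, shares near those over all genes tested. Myc is a factor that binds promoters of ribosomal protein genes. It was at 20.9 and 20.4 RPKM in ES, 5.09 and 16.8 in 3F + IL6, 53.0 and 54.6 in 4F and 62.40 and 62.4 in MEF. The part of Myc in the levels of the common set was not tested. Mycn was at 29.7 and 29.6 RPKM in ES, 43.1 and 76.9 in 3F + IL6, 27.2 and 28.1 in 4F and 0.92 and 1.20 in MEF. The Myc difference between the kinds of clone, −2.39, and the Mycn difference, 1.03, had limma adjusted p of 0.0512 and 0.0754. Larp1, which binds the pyrimidine tract, was at 58.9 and 56.7 RPKM in ES, 90.7 and 84.4 in 3F + IL6, 77.3 and 77.4 in 4F and 50.4 and 48.4 in MEF. It rose over ES in both kinds of clone, by 0.59 and 0.41.

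**Figure D4:**
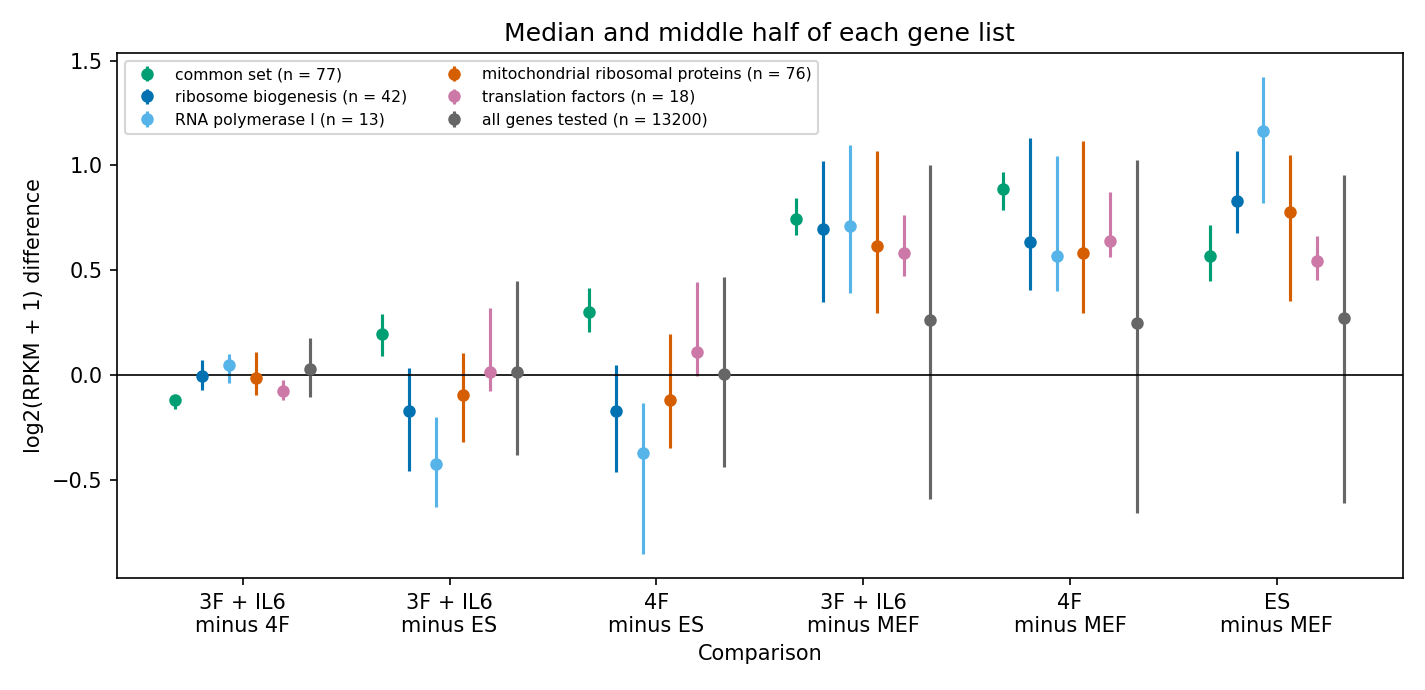
Median and middle 50% of the log2(RPKM + 1) differences of each gene list in the 6 comparisons, with all 13200 genes tested in grey. Against ES the common set lies at 0.20 and 0.30 (−0.000223 and 0.02 after quantile normalization), whereas ribosome biogenesis lies at −0.17 and −0.17 and RNA polymerase I at −0.43 and −0.37; against MEF all 5 lists lie above the median of all genes.

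The members with mostly unique sequence were read apart, because most of their transcript is absent from other transcripts. At least 90% of the 50-base windows were unique in 5 common members, among them Rps3 (97.0%), Rps15a (93.9%), Rps20 (92.4%) and Rpl8 (92.1%). The transcripts taken for Rps15a and Rps20 have 5130 and 3706 bases, and where along them the reads fell is not known. These 4 genes were called higher in each pluripotent group than in MEF (49.2 to 49.7 percent of all genes). They were also called higher in 4F than in ES (33.7), with differences of 0.22, 0.39, 0.29 and 0.41 in the values as deposited. In 3F + IL6 against ES the differences were 0.08, 0.19, 0.22 and 0.27, and Rps3 was the 1 of these 4 genes not called. At the other end, 1.35% of the windows of Rps27 were unique, and Rps27 gave 0.19 and 0.31 against ES.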

How the data were processed

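Poly-A RNA from 8 cultures was sequenced as 50-base reads, per the labels. The authors deposited 1 value for each of 23389 symbols and library, with no unit in the header. These were read as RPKM from the low deposited values, whose steps scale with gene length. The genome build was mm10 according to the submitters' processing notes. The sources used here give neither the aligner and counting tool nor how reads with several matches were placed. A stray header-like line in each table was left out.

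limma 3.58.1 in R 4.3.3 fitted log2(RPKM + 1) for all 8 libraries with a trended empirical Bayes variance, 4 groups and no replicate block, over 13200 genes with RPKM of at least 1 in at least 2 libraries. All 83 members passed this filter. The 6 comparisons were adjusted by the Benjamini-Hochberg method with a threshold of 0.05. Fold changes on this scale understate those of low genes. Only 50.5% to 53.4% of low values were whole reads within 0.1, so read counts could not be had from them and limma on log values was the only test.

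Any member could be named, and a few items are not reported here. From each other list the text names genes among the 4 with the smallest p in ES against MEF and in 3F + IL6 against 4F, and Myc, Mycn and cell type markers. The members and lists were chosen with earlier results of these data known. GENCODE M21 gave coordinates and transcripts, with 21024 symbols matched there, 205 by RefSeq symbol, 1892 by RefSeq synonym and 268 unmatched. Alternatives were another pseudocount, 2 other filters, 4 scalings, a fit of the 4 libraries compared, no variance trend, the replicate number as a block, and leaving out each library. Their use on single genes, the X-linked split and the other lists was chosen after seeing the data.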

Additional observations from a re-analysis of the deposited data

How the results depend on the processing

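Counts of common genes called against ES and MEF changed most under other scalings. That of 3F + IL6 against 4F changed most without 3F + IL6 clone 1, a fit in which calls over all genes rose as well. For 3F + IL6 against ES, 46 higher and 1 lower became 30 higher after median centring, 18 and 20 after quantile normalization, 7 lower after scaling to the same sum, and 15 and 18 with libraries centred on the common set. For 4F against ES, 67 and 1 became 21 and 14 after quantile normalization, 3 lower after scaling to the same sum, and 12 and 22 with libraries centred on the set. Against MEF, quantile normalization gave 1 lower in 3F + IL6 and 4 in ES, and centring on the set gave 11 and 22 in 3F + IL6, 11 and 27 in 4F and 19 and 24 in ES. Centring on the set removes its shared shift by construction. It also turned the sign of Rpl39l in 4F against MEF (−0.35), Rpl3l against MEF (−0.27 in 3F + IL6, −0.18 in 4F), Rpl7l1 against MEF (−0.21, −0.42) and Rps27l against ES (−0.0587, −0.0351) and MEF (−0.38 in 3F + IL6, −0.35 in 4F, −0.32 in ES). The Rpl3l values are sizes only, because only the ES libraries carried that gene past the low-value filter. The summed level over MEF was 1.48 in ES, 1.69 in 3F + IL6 and 1.84 in 4F, and 1.33, 1.45 and 1.54 as a share of each library.

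Leaving out 1 library at a time gave 26 to 58 higher and 1 to 5 lower for 3F + IL6 against ES, 51 to 70 higher and 1 to 2 lower for 4F against ES, 0 to 51 lower for 3F + IL6 against 4F, and 0 to 1 lower for ES against MEF. With 1 library in a group, that library is assumed to vary like the others. Same-numbered libraries had deviations with correlations of −0.06 to 0.21 over the 6 pairs of groups (0.21 for ES and MEF, 0.11 for the clones), and the labels do not say what a number marks, so the numbers were not used as pairs. With the replicate number as a block, 47 genes were higher and 2 lower in 3F + IL6 against ES and 65 higher in 4F against ES. Groups of 2 limit what single genes can show, and Rpl3l was too low to be tested under the stricter filter or without either ES library. Genes that share reads with pseudogenes carry that uncertainty at any depth.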
